A study of Mus musculus with 40 samples.

Results

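The samples described here are ES-motor neurons, mouse motor neurons made from embryonic stem cells and grown on ES-astrocytes, which are astrocyte-like cells made from the same stem cells. They were chosen by their labels: the 4 motor neuron samples labelled tgfb2 and the 4 labelled control, 8 of the 40 samples of the series, with every gene of the count table examined. The 8 samples share a non-commercial stem cell line from B6.Cg-Tg(Hlxb9-GFP)1Tmj/J mice, in which the promoter of Hb9 (also named Hlxb9 or *Mnx1*) drives enhanced green fluorescent protein, and a differentiation with retinoic acid and smoothened agonist. In the TGF-b2 group, transforming growth factor b2 at 5 ng/ml was given to the ES-astrocytes for 24 h, and sorted fluorescent ES-motor neurons were then plated on them. In the control group, the ES-astrocytes received no mediator. The ES-astrocytes of both groups were first given forskolin, and all ES-astrocyte media held fetal bovine serum, which the authors describe as high in TGF-b. According to the study's methods the medium stayed on before plating, and the authors thought leftover mediator a small and likely minor risk since these substances are short-lived, which was not tested here. The paper states that co-cultures were fixed 24 h after their start. The time from plating to RNA is not given for the sequenced samples in the sources used here.

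As background, TGF-b ligands bind a type II receptor, TGFBR2, which recruits and activates the type I receptor TGFBR1. The receptor pair phosphorylates SMAD2 and SMAD3, which join SMAD4 and act on target genes in the nucleus, among them genes for brakes of the pathway such as *Smad7* and *Skil*. Hox genes encode transcription factors that give motor neurons their position along the hindbrain and spinal cord, with low group numbers expressed towards the head and high numbers towards the tail, and retinoic acid is used in culture to induce the rostral ones.

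Polyadenylated RNA from about 200 sorted cells per sample was sequenced, and reads were counted per gene. Control libraries A, B, C and D held 1280778, about 19717300, 240859 and 2383502 counts, and TGF-b2 libraries A to D held 283205, 12606121, 1695346 and 1323310. The deepest library thus held 81.9 times the counts of the shallowest, and library B alone held 83.5% of the counts of the control group and 79.2% of those of the TGF-b2 group. Control C and TGF-b2 A were shallow, under 20% of the median of the 40 libraries. Levels are given as CPM, the counts of a gene per 1e6 counts of the library, and 3 counts came to 0.152 CPM in control B, 10.6 CPM in TGF-b2 A and 12.5 CPM in control C. A gene of low expression can therefore go undetected in the shallow libraries. Amplified reads without molecular identifiers are not independent molecules, so intervals and lower bounds below cover counting error only. Control libraries carry plate index 1 and TGF-b2 libraries plate index 2, and these effects cannot be told apart in a comparison with the control.

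The question of the comparison was whether ES-motor neurons differed in gene expression after contact with ES-astrocytes that had been given TGF-b2. Of 19820 genes detected in the 8 libraries, 7947 had enough counts to be tested with edgeR's quasi-likelihood test, and 1 was called, *Hoxa5*, which is 0.0126% of the genes tested. Called means that the p adjusted by the method of Benjamini and Hochberg was 0.05 or less and that the log2 fold change lay beyond 1 in either direction. The median log2 fold change of all genes tested was -0.00, and 3949 of the 7947 estimates were positive. At an unadjusted p under 0.05, 108 genes were higher on TGF-b2 (1.36%) and 113 were lower (1.42%). The counts for the gene lists below are to be read beside these shares. The 4 TGF-b2 libraries lay above all 4 controls for 66 genes (0.831%) and below them for 144 (1.81%). DESeq2 was given all 19820 genes, adjusted p over the 12170 that its filter on low means kept, and called 17, 8 higher and 9 lower, and limma-voom with quality weights called 0, with 473 genes at an unadjusted p under 0.05.

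*Hoxa5* (ENSMUSG00000038253, chromosome 6 from 52201754 to 52204587 on GRCm38) encodes a homeodomain factor of the brachial and lower cervical levels, where it takes part in the identity of phrenic motor neurons. It stood at 17.96, 18.9, 20.8 and 25.2 CPM in control A to D, and at 233, 102, 101 and 205.5 CPM in TGF-b2 A to D. The lowest TGF-b2 library was thus above the highest control library, with TGF-b2 A and D higher than B and C. The means were 20.7 ± 3.20 CPM in controls and 160.4 ± 69.0 CPM on TGF-b2 (SD, n = 4 each), and the difference was larger than the spread between replicates. *Hoxa5* rose by a log2 fold change of 3.05 (standard error, SE, 0.44), higher in 4 of 4 libraries, with an adjusted p of 0.0103 by edgeR. The call was kept in 12 of 17 alternative settings, with log2 fold changes of 2.76 to 3.25 and adjusted p of 1.4e-07 to 0.362 over all of them. It was lost without TGF-b2 A (log2 fold change 2.78, edgeR adjusted p 0.0556), without TGF-b2 D (2.90 and 0.0793), without control C (3.03 and 0.0647), without both shallow libraries (2.76 and 0.362), and with limma-voom (3.12 and 0.0634). Within the libraries of index primer S338 alone (A and C) the log2 fold change was 3.25 (edgeR adjusted p 0.304), and within those of S340 alone (B and D) it was 2.86 (adjusted p 1.00). Fewer cells that express a gene and less of its RNA per cell cannot be told apart in these bulk samples.

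*Hoxb5* (ENSMUSG00000038700, chromosome 11 from 96303336 to 96306121), the paralog of *Hoxa5* in the Hoxb cluster, stood at 13.3, 58.0, 16.6 and 34.0 CPM in control A to D. On TGF-b2 it stood at 120.1, 173, 163 and 181 CPM. All 4 TGF-b2 libraries were above the highest control, B. The log2 fold change was 2.42 (SE 0.44) and the edgeR adjusted p 0.0584, which misses the threshold. Over 17 alternatives the adjusted p ran from 0.000199 with DESeq2 to 0.549 without the shallow libraries, and *Hoxb5* was called in 5 of them, among them the fit without control B (log2 fold change 2.87, adjusted p 0.0473).

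*Hoxc5*, their paralog in the Hoxc cluster, was chosen after its values were seen. It was not tested by the main edgeR fit, whose filter it failed. It had 2 counts in all controls, at 1.56 CPM in A and 0 in B, C and D, and 1139 counts on TGF-b2, at 3.53, 80.6, 43.1 and 37.0 CPM. Every TGF-b2 library was above every control, but TGF-b2 A held only 1 count. The ratio of the summed, scaled counts was 898, with a 95% Clopper-Pearson interval of 248 to 7425. It rests on the deep library B, which held 1016 of the counts on TGF-b2 and none in the controls: without control B the ratio was 132 (36.5 to 1091), and without TGF-b2 B it was 513 (139 to 4281). Without control A, which held both control counts, only a lower bound of 570.1 remains, against a floor of 3 counts. DESeq2 called it with an adjusted p of 3.34e-05, and its adjusted p ran up to 0.515 over the alternatives in which it was tested. It was called in 3 of them, among them the edgeR fit without control A (smallest adjusted p of that fit 0.0300).

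The Hox genes were then examined as a family, a list chosen after the values were seen. Of 39 Hox genes in the table, 19 were detected in the 8 libraries and 10 were tested by edgeR. The log2 fold change was positive for 9 of the 10 and negative for *Hoxd3* (-0.50), with a median of 1.33 beside -0.00 for all genes tested. Besides *Hoxa5*, which alone was called, 4 more had an unadjusted p under 0.05, all higher on TGF-b2: *Hoxb5*, *Hoxb3* (1.92, SE 0.60), *Hoxb4* (1.51, SE 0.58) and *Hoxc4* (2.07, SE 0.71). These are also the 5 tested Hox genes whose groups did not overlap, so that 50% of the tested Hox genes were higher by either measure, beside 1.36% and 0.831% of all genes tested. The remaining tested members were *Hoxa2* (0.45), *Hoxb2* (0.35), *Hoxa3* (1.15) and *Hoxa4* (0.97), whose groups overlapped. *Hoxd4*, which like *Hoxc5* was not tested, stood at 4.68, 5.17, 4.15 and 0 CPM in controls. On TGF-b2 it stood at 0, 0.159, 0 and 5.29 CPM, with overlap. The higher levels on TGF-b2 were thus not seen in *Hoxd3* or *Hoxd4*. The CPM of all Hox genes summed to 202, 230.5, 158 and 211 in control A to D and to 696, 671, 514 and 706 in TGF-b2 A to D, so that the sums did not overlap either. The share and the sums include genes already named for their difference, *Hoxa5* and *Hoxb5* among them, so they are not separate evidence. Of 21 Hox genes of groups 7 to 13, which mark more caudal levels, 17 were not detected in any of the 8 libraries, and no group mean was above 1.77 CPM.

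**Figure D1:**
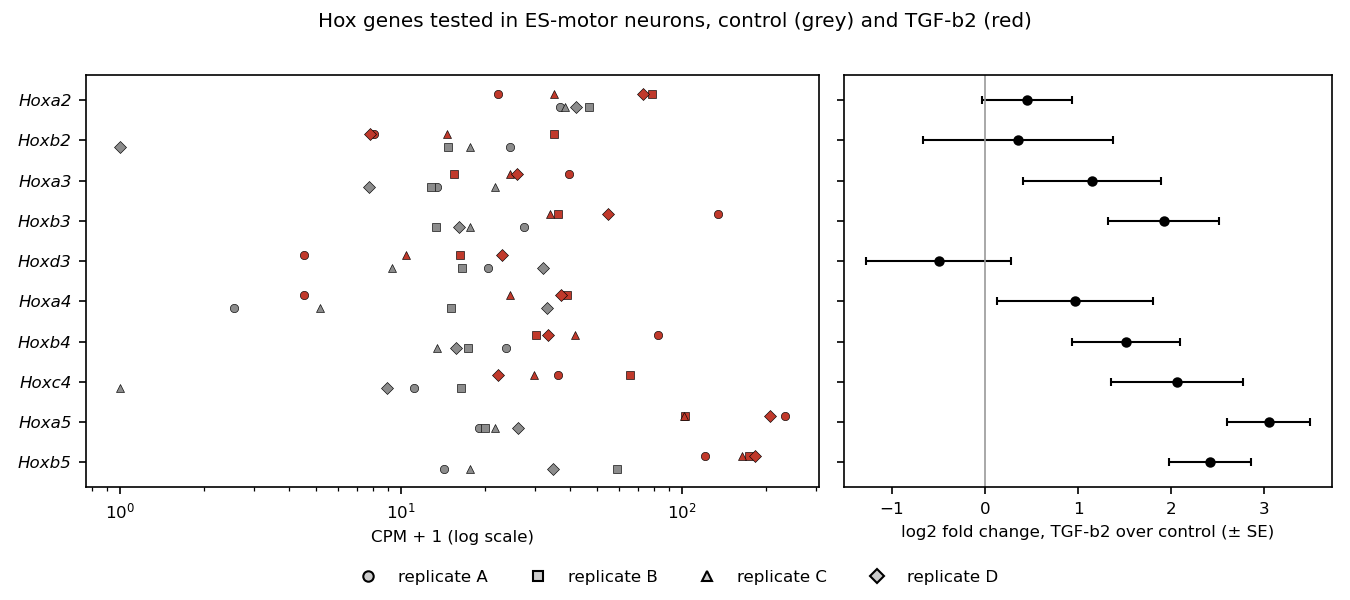
The 10 tested Hox genes from group 2 (top) to group 5 (bottom): CPM + 1 of each library on a log axis (left; grey control, red TGF-b2, symbols by replicate) and the edgeR log2 fold change with its standard error (right). For *Hoxa5* and *Hoxb5* the red points lie to the right of the grey ones, with log2 fold changes of 3.05 and 2.42, and *Hoxd3* is the 1 gene with a negative estimate, -0.50.

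Hox genes lie close together and share transcribed sequence, and the counting is not stated to have used the strand. *Hoxa5* overlaps *Hoxa3* and *Gm28308* on its own strand and *Hoxaas3* on the other. *Hoxaas3* (named after its values were seen) had 8 counts in controls, at 3.90, 0.101, 4.15 and 0 CPM in A to D, and 170 on TGF-b2, at 0, 11.03, 15.3 and 3.78 CPM, so that the groups overlapped. *Hoxb5os*, which overlaps *Hoxb5* on the other strand and was also named after its values were seen, had 56 counts in controls, at 0, 2.49, 4.15 and 2.52 CPM, and 115 on TGF-b2, at 7.06, 7.85, 7.67 and 0.756 CPM, with overlap. The annotation of *Hoxc5* overlaps *Hoxc6*, *Hoxc8*, *Hoxc9* and *Hoxc10*, each listed at 0 in all 8 libraries. How reads of such overlaps were assigned was not tested.

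Apart from *Hoxa5* and *Hoxb5*, the 10 genes of smallest p held 3 that were higher and 5 that were lower on TGF-b2, none of them called by edgeR. *Snx18*, a sorting nexin of endocytosis and membrane remodelling, stood at 125, 147.5, 349 and 109 CPM in control A to D and at 24.7, 23.2, 34.8 and 33.3 CPM on TGF-b2. Its 4 TGF-b2 libraries were below every control, and control C was the highest of all. The log2 fold change was -2.50 (SE 0.44, edgeR adjusted p 0.0584), and over 17 alternatives the adjusted p ran from 0.000109 to 0.549, with 6 that called it, among them the fit without control D (-2.66, adjusted p 0.0377). *Pou3f4*, a POU-domain transcription factor of the developing nervous system, stood at 67.1, 57.0, 87.2 and 84.7 CPM in controls and at 17.7, 10.9, 13.6 and 19.6 CPM on TGF-b2. The groups were apart, and the log2 fold change was -2.20 (SE 0.50, edgeR adjusted p 0.402, from 0.00463 to 1.00 over its alternatives).

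*Kitl*, the ligand of the receptor tyrosine kinase KIT, had 289 counts in controls, at 27.3, 10.7, 20.8 and 16.4 CPM, and 1 count on TGF-b2, in library B. The ratio of TGF-b2 to control was 0.00546 (95% Clopper-Pearson interval 0.000138 to 0.0306), or 0.00293 without control B (7.34e-05 to 0.0168). Without TGF-b2 B, which held the 1 count, *Kitl* was at least 11.6-fold lower against a floor of 3 counts. By its test edgeR gave an adjusted p of 0.0738, from 3.34e-05 to 0.788 over its alternatives. In the 12 ES-motor neuron libraries on other stimuli, *Kitl* was at 0 in 8 and reached 18.7 CPM at most. Some of these zeros came from shallow libraries. There 3 counts were 25.6 and 26.6 CPM (IL-1a and TNF-a libraries A and D) or 457.5 CPM (C1Q and C5 library A). These values lie above the control mean of 18.8 CPM, so that such libraries could miss the control level. C1Q and C5 libraries B, C and D were deeper, with 3 counts at 2.12, 2.62 and 0.913 CPM. That group still reached 2.74 CPM at most, below every control (log2 fold change -3.90, SE 1.26, edgeR adjusted p 0.997). For IL-1b and IL-6 against the control it was -1.19 (SE 0.98). Low *Kitl* was thus not particular to TGF-b2. *Ccdc130* stood at 15.6, 25.4, 8.30 and 32.7 CPM in controls and at 3.53, 0.397, 0 and 0.756 CPM on TGF-b2. Its log2 fold change was -5.08 (SE 1.27, edgeR adjusted p 0.614), from -5.97 to -4.18 over 16 alternatives. Of these, 1 called it, DESeq2 (adjusted p 0.00487). *Id3*, an inhibitor of basic helix-loop-helix factors that BMP and TGF-b signals regulate, stood at 82.8, 149, 58.1 and 36.5 CPM in controls and at 21.2, 18.3, 9.44 and 21.9 CPM on TGF-b2. Its groups were apart, with control B the highest, and the log2 fold change was -2.14 (SE 0.53, edgeR adjusted p 0.614, from 0.0506 to 1.00 over its alternatives).

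*Spock1*, which encodes a proteoglycan of the extracellular matrix, stood at 13.3, 15.6, 8.30 and 25.2 CPM in controls and at 60.0, 27.1, 66.1 and 260.0 CPM on TGF-b2, with library D far above the other TGF-b2 libraries and B close to control D. Its log2 fold change was 2.74 (SE 0.63, edgeR adjusted p 0.402, from 0.0137 to 1.00 over its alternatives). Over the same alternatives the log2 fold change ran from 1.73 to 3.10. *Dusp6*, a phosphatase that inactivates ERK and is itself induced by ERK signalling, stood at 3.12, 7.15, 0 and 0.839 CPM in controls and at 49.4, 23.8, 33.0 and 31.0 CPM on TGF-b2. The groups were apart, with a log2 fold change of 3.44 (SE 0.86, edgeR adjusted p 0.614, from 0.0127 to 1.00 over its alternatives). The predicted gene *Gm28876*, on chromosome 15 from 103096151 to 103102111, had 0 counts in controls and 129 on TGF-b2, at 10.6, 7.46, 11.8 and 9.07 CPM. Against a floor of 3 counts over the control group this is at least 67.8-fold higher, a bound set by the depth of control B. Without control B it is 9.97, and 3 counts in control C alone would be 12.5 CPM, above every TGF-b2 value of this gene.

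Markers of motor neurons were present in both groups. *Mnx1*, whose promoter drives the sorted reporter, stood at 1423, 1753, 772 and 474 CPM in control A to D and at 554, 1664, 454 and 510.1 CPM on TGF-b2. B was the highest library of each group and the groups overlapped, with a log2 fold change of -0.40 (SE 0.43). *Isl1*, a LIM homeodomain factor of motor neurons, stood at 459, 185, 274 and 246 CPM in controls and at 318, 186, 143 and 96.0 CPM on TGF-b2, again with overlap (-0.58, SE 0.41). *Lhx3*, its partner in motor neurons of the medial column, had too few counts to be tested, at 0, 8.22, 4.15 and 0 CPM in controls, where B held 162 of 163 counts, and at 10.6, 4.44, 7.67 and 0 CPM on TGF-b2. The groups overlapped. Of 18 genes of motor neuron identity, 10 were tested and 1 was called (*Hoxa5*), beside 0.0126% of all genes tested. At an unadjusted p under 0.05 there were 3 higher (*Hoxa5*, *Hoxc4* and *Foxp1*) and 1 lower (*Onecut2*). These were 40% of the 10, beside 2.78% of all genes tested, and *Hoxa5* and *Hoxc4* were also counted among the Hox genes. The median log2 fold change of the 10 was -0.29. *Tbx20* and *Aldh1a2* were at 0 in all 8 libraries.

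Of 10 cholinergic genes, 7 were tested, with a median log2 fold change of 0.06 and 0 at an unadjusted p under 0.05. *Chat*, the acetylcholine synthetic enzyme, had means of 13.1 ± 9.08 CPM in controls and 9.49 ± 8.31 CPM on TGF-b2 (SD, n = 4 each). *Slc18a3*, the vesicular acetylcholine transporter, overlaps *Chat* on the same strand and had means of 46.7 ± 41.9 and 56.6 ± 37.2 CPM. *Slc5a7*, the choline transporter, stood at 25.0, 25.3, 24.9 and 25.2 CPM in controls and at 14.1, 19.2, 9.44 and 6.80 CPM on TGF-b2. All 4 of its TGF-b2 libraries were below every control, with a log2 fold change of -0.94 (SE 0.71) and an unadjusted p of 0.197 by edgeR. Of 5 neuronal intermediate filament genes, 4 were tested (median 0.21, 0 at an unadjusted p under 0.05). *Nefl*, the light neurofilament, stood at 1708, 1646, 1574 and 2188 CPM in controls and at 1444, 1402, 1539.5 and 1452 CPM on TGF-b2, apart but with a log2 fold change of -0.19 (SE 0.30). *Prph*, peripherin, had means of 11.8 ± 7.88 CPM in controls and 27.3 ± 13.05 CPM on TGF-b2, with overlap.

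Markers of other cell types were examined next. Of 25 markers of astrocytes and radial glia, 5 were tested, with 0 higher and 1 lower (*Id3*) at an unadjusted p under 0.05 and a median of 0.31. Their CPM summed to 1035, 853, 938 and 835 in control A to D and to 960.4, 562, 707 and 682 on TGF-b2, and *Vim*, an intermediate filament gene that immature neurons also express, was the most abundant. *Slc1a3*, the glutamate transporter GLAST, had 4 counts in controls, all in A, and 0 on TGF-b2, *Ednrb* had 2 in each group, and *Aqp4*, *Aldh1l1*, *Hes1* and *Tnc* were at 0 in all 8 libraries. *Vim* stood at 445, 491, 677 and 454 CPM in controls and at 307, 299.7, 357 and 297 CPM on TGF-b2, below every control, with a log2 fold change of -0.60 (SE 0.31). Its mean in controls, 517 CPM, was near that of control ES-astrocytes, 522 CPM. The other 3 tested markers had positive estimates, among them *Slc1a2*, the glutamate transporter GLT-1, at 22.6, 14.7, 0 and 24.8 CPM in controls and at 3.53, 27.7, 34.8 and 56.7 CPM on TGF-b2, where B, C and D were above every control and A was not (0.97, SE 0.76). Of 14 markers of fibroblasts and mesenchyme, 10 of microglia and 9 of pluripotent cells 0 were tested, since their counts were too low, and 9 of the 10 microglial markers were at 0. Of 19 markers of spinal interneurons and floor plate 1 was tested (*Lhx1*, -0.04), and of 9 of the oligodendrocyte lineage 1 (*Cnp*, 0.82). Summed over these lists the fibroblast markers came to 0.781, 5.98, 0 and 1.26 CPM in controls and to 28.2, 2.30, 4.72 and 18.1 CPM on TGF-b2, with overlap and *Acta2* the most abundant, and their part in the other results was not tested. Over 15 measures of a library as a whole, marker shares included, the smallest p by the exact permutation test was 0.114. Since 4 against 4 libraries allow no p under 0.0286, a single measure of 15 could not pass after adjustment, and these tests do not show that the groups were alike. The share of astrocyte and radial glia markers was lower in every TGF-b2 library than in every control once TGF-b2 A was left out, that of proliferation markers once TGF-b2 B was left out, and that of pluripotent cell markers once control D was left out (exact permutation p 0.0286 each). Each of the 15 measures was run with each of 8 libraries left out, and 0.0286 is the smallest p that 4 against 3 libraries allow, so such cases can arise by chance. The pluripotent markers summed to 10.9, 7.40, 4.15 and 0 CPM in controls and to 3.53, 1.98, 0 and 0 CPM on TGF-b2. The sums in control C and TGF-b2 A were thus under 3 counts.

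The genes of the TGF-b pathway showed few transcripts of the ligand and of its type II receptor. Of 16 genes for ligands and their release, 1 was tested, *Itgav*, the integrin subunit that binds latent TGF-b (1.09, SE 1.09). *Tgfb1* and *Tgfb3* were at 0 in all 8 libraries. *Tgfb2* itself had 1 count in controls, in A, and 9 on TGF-b2, all in library A, so that no fold is given for it. Of 5 receptor genes, *Tgfbr1* alone was tested, and *Tgfbr2*, *Acvrl1* and *Eng* were at 0 in all 8 libraries. *Tgfbr1* stood at 89.0, 103, 203 and 99.4 CPM in controls and at 134, 124, 94.97 and 93.7 CPM on TGF-b2, with control C highest and the groups overlapping. Its log2 fold change was -0.01 (SE 0.37), and over its alternatives it ran from -0.14 to 0.27, with both signs. *Tgfbr2* had 29 counts in 2 of all 40 libraries of the series, so that the count table holds little signal for it in either cell type. *Tgfbr3*, a co-receptor, had 10 counts in controls and 1 on TGF-b2, each time in library A, and no fold is given either.

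Of 17 transducers and brakes of the pathway, 11 were tested, with 0 at an unadjusted p under 0.05 in either direction and a median log2 fold change of 0.01. *Smad2* stood at 17.96, 23.4, 83.0 and 41.5 CPM in controls and at 0, 76.0, 17.1 and 25.7 CPM on TGF-b2, with overlap (-0.26, SE 0.72). *Smad3* was at 0 in all 8 libraries and had 207 counts in 8 of the 40. *Smad7*, which blocks the receptor, had means of 10.9 ± 5.51 CPM in controls and 5.33 ± 3.15 CPM on TGF-b2. *Skil*, which encodes the SMAD corepressor SnoN, stood at 2065, 883, 1187 and 1636 CPM in controls and at 4163, 1391, 2647 and 1486 CPM on TGF-b2. TGF-b2 A and C were above every control and B and D were not, with a log2 fold change of 0.86 (SE 0.41) and an unadjusted p of 0.0523 by edgeR. Per kilobase of exon, the control mean of *Skil* was 149 CPM, that of *Tgfbr1* 18.9 CPM and that of *Smad2* 4.72 CPM.

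Of 36 known target genes of TGF-b signalling, 10 were tested and 10 were at 0 in all 8 libraries. At an unadjusted p under 0.05, 0 were higher and 1 was lower, *Id3*, and the median log2 fold change was -0.65. *Timp1*, an inhibitor of matrix metalloproteinases, had means of 3.27 ± 4.37 CPM in controls and 14.2 ± 12.98 CPM on TGF-b2, with overlap (1.99, SE 1.18). Of 22 genes of BMP and activin signalling, 9 were tested, with 0 at an unadjusted p under 0.05 in either direction and a median of 0.07. The type I receptor *Acvr1* (-0.87, SE 0.97) and the activin receptors *Acvr1b* (-0.73, SE 1.07) and *Acvr2b* (0.82, SE 0.89) had groups that overlapped.

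**Figure D2:**
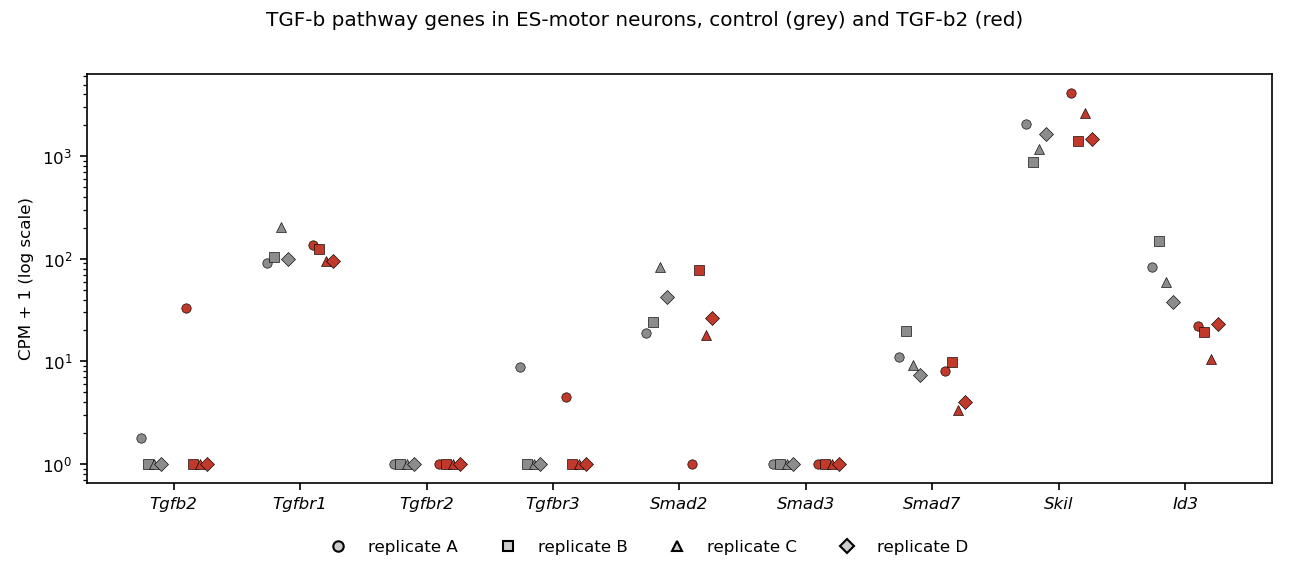
CPM + 1 on a log axis for 9 genes of the TGF-b pathway in the 4 control (grey) and 4 TGF-b2 (red) libraries of ES-motor neurons, symbols by replicate. *Tgfbr2* and *Smad3* are at 0 CPM in all 8 libraries, *Tgfbr1* lies between 89.0 and 203 CPM in both groups, and *Id3* is the 1 gene shown whose groups are apart.

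Among genes of neuronal function, 22 of 24 pan-neuronal genes were tested, with a median log2 fold change of 0.19. At an unadjusted p under 0.05, 2 were higher (9.09%, beside 1.36% of all genes tested). These were *Syt4*, a synaptotagmin of vesicles (1.30, SE 0.43), and *Celf4*, an RNA-binding protein of neurons (0.99, SE 0.39), both with overlap. Of 20 genes of synaptic vesicle release, 11 were tested (median 0.06), again with *Syt4* alone at an unadjusted p under 0.05. Of 26 genes of axon growth and guidance, 24 were tested (median 0.19), with 1 higher and 0 lower at that level. It was *Nrp1*, a receptor for semaphorin 3A, at 7.81, 11.97, 0 and 23.1 CPM in controls and 28.2, 30.7, 33.6 and 59.7 CPM on TGF-b2. All 4 TGF-b2 libraries were above every control, D most, with a log2 fold change of 1.75 (SE 0.70).

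Of 20 genes of axon injury and regeneration, 10 were tested, with 0 at an unadjusted p under 0.05 and a median of 0.17. *Gadd45a*, which responds to DNA damage and axon injury, stood at 2.34, 4.97, 4.15 and 2.94 CPM in controls and at 14.1, 8.49, 12.4 and 14.4 CPM on TGF-b2, apart from the controls (1.89, SE 1.00), while *Ecel1*, an injury-induced peptidase, had a negative estimate with overlap (-0.79, SE 0.52). Of 25 genes of apoptosis, 13 were tested, with 0 at an unadjusted p under 0.05 and a median of -0.12. *Casp9*, an initiator caspase, had means of 30.6 ± 8.14 CPM in controls and 51.1 ± 44.7 CPM on TGF-b2, with overlap. Of the 13 estimates 8 were negative, while 3949 of all 7947 genes tested had a positive one. Of 18 immediate early genes, 5 were tested (median 0.08, 0 at an unadjusted p under 0.05), and of 16 proliferation markers 6 (median -0.18, likewise 0). Among the latter *Top2a*, a topoisomerase of dividing cells, stood at 2.34, 4.77, 0 and 0 CPM in controls and at 7.06, 10.2, 15.3 and 9.82 CPM on TGF-b2, with every TGF-b2 library above every control (2.42, SE 1.19). Others went the other way, with 4 of the 6 tested negative: *Rrm2*, a reductase subunit of DNA synthesis (means of 17.04 and 4.01 CPM, -1.97, SE 1.13), and *Mcm2*, a replication helicase (11.1 and 5.96 CPM, -0.83, SE 1.09), both with overlap. The list summed to means of 190.4 CPM in controls and 146 CPM on TGF-b2.

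Of 24 genes of the unfolded protein and integrated stress response, 20 were tested, with a median of -0.12. At an unadjusted p under 0.05, 0 were higher and 3 were lower (15%), beside 1.36% higher and 1.42% lower among all genes tested. *Eif2ak3* encodes PERK, a sensor of unfolded protein in the endoplasmic reticulum, and stood at 23.4, 19.5, 54.0 and 33.6 CPM in controls and at 7.06, 3.73, 5.31 and 0.756 CPM on TGF-b2. The groups were apart, with a log2 fold change of -2.95 (SE 0.88) and an adjusted p of 0.963 by edgeR, from 0.0417 with DESeq2, which called it, to 1.00 over its alternatives. *Hspa5*, the chaperone BiP (-0.93, SE 0.38), had groups that overlapped, and *Creld2*, a protein of the endoplasmic reticulum (-2.06, SE 0.92), had groups that were apart. *Atf4* (-0.02), a transcription factor of the integrated stress response, differed little. Leaving aside the Hox list, where it also called *Hoxb5* (adjusted p 0.000199), DESeq2 called 3 members of the other 24 gene lists, *Hoxa5*, *Hoxc5* and *Eif2ak3*. Among all genes it called 17 of the 12170 over which p was adjusted. The number of list members among those 12170 is not given here, so the 2 counts are not compared. Of the list members edgeR called *Hoxa5*, its 1 call among 7947 genes tested.

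Of 18 receptors for trophic factors, 6 were tested, with a median of 0.05 and 1 lower at an unadjusted p under 0.05. This was *Gfra1*, the co-receptor of GDNF, at 54.7, 36.6, 95.5 and 51.2 CPM in controls and 14.1, 29.0, 21.8 and 26.4 CPM on TGF-b2. Every TGF-b2 library was below every control, with a log2 fold change of -1.22 (SE 0.51). Its partner *Ret* had means of 20.5 and 9.72 CPM, with overlap. Of 24 genes of the cytokine and interferon response, 5 were tested and 11 were at 0 in all 8 libraries, with a median of -0.09 and 1 higher at an unadjusted p under 0.05. It was *Nfkbia*, the inhibitor of NF-kB, at 4.68, 4.26, 4.15 and 11.7 CPM in controls and 7.06, 32.0, 37.8 and 9.07 CPM on TGF-b2, where B and C were high and A and D lay among the controls (1.83, SE 0.87).

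The 4 TGF-b2 libraries were also set against the 12 ES-motor neuron libraries on ES-astrocytes given other mediators, IL-1a at 3 ng/ml with TNF-a at 30 ng/ml, C1Q at 400 ng/ml with C5 at 500 ng/ml, or IL-1b at 5 ng/ml with IL-6 at 10 ng/ml. This asks whether genes differed from the other stimuli too, without the control libraries, although the TGF-b2 libraries are shared by both comparisons. Of 7825 genes tested by edgeR, 5 were called (0.0639%), all higher on TGF-b2: *Hoxa5*, *Nfia*, *Tshz1*, *Foxp1* and *Dok5*. Of these, *Nfia*, *Tshz1* and *Foxp1* encode transcription factors, and *Dok5* a docking protein of receptor tyrosine kinases. When TGF-b2 A was left out the count was 2, for B it was 4, for C 3 and for D 0. It was also 0 without the shallow libraries, which left 8 libraries and no library on IL-1a and TNF-a. Against C1Q and C5 and IL-1b and IL-6 alone, whose libraries carry plate index 2 as the TGF-b2 libraries do, 3 genes were called, *Hoxa5* (log2 fold change 2.63), *Nfia* (2.58) and *Dok5* (3.73). That comparison was chosen after seeing the data.

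*Hoxa5* stood at 85.2, 31.4, 13.3 and 44.3 CPM on IL-1a and TNF-a, at 0, 29.7, 16.6 and 19.5 CPM on C1Q and C5, and at 41.0, 49.8, 27.0 and 34.1 CPM on IL-1b and IL-6. All 12 values were below the lowest TGF-b2 library, at 101 CPM, but 7 of the 12 libraries were shallow, under 20% of the median of the 40. The 0 came from C1Q and C5 library A, at 0.267% of that median, where 3 counts are 457.5 CPM, so that it could not show a level near 101 CPM. The log2 fold change against the other stimuli was 2.53 (SE 0.37, higher in 4 of 4 libraries, edgeR adjusted p 0.00112), beside 3.05 against the control. Over its alternatives it was lost without TGF-b2 D (2.36, adjusted p 0.0577) and without the shallow libraries (2.39, adjusted p 0.377), and its adjusted p was as low as 5.56e-05 with no filter on low counts.

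*Nfia*, a transcription factor that works in the switch to gliogenesis and marks classes of spinal neurons, stood at 88.2, 51.4, 12.5 and 171 CPM in control A to D and at 452, 141, 200.5 and 514 CPM on TGF-b2. TGF-b2 B lay below control D, and the other TGF-b2 libraries lay above every control. In the 12 libraries on other stimuli it was at most 105 CPM, with a median of 47.1 CPM, below every TGF-b2 library. The log2 fold change was 2.78 against the other stimuli (SE 0.42, edgeR adjusted p 0.00112) and 2.03 against the control (SE 0.56, adjusted p 0.777). With a term for the replicate letters, which were not taken as pairs, edgeR called it against the control (2.17, adjusted p 0.0303). The call against the other stimuli was lost without TGF-b2 D (2.44, adjusted p 0.0769) and without the shallow libraries (2.71, adjusted p 0.357), while the fit with no filter on low counts gave an adjusted p of 1.85e-08.

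*Foxp1*, a cofactor by which Hox proteins set the identity of limb-innervating motor neurons, stood at 184, 68.9, 125 and 121 CPM in controls and at 184, 271, 359.8 and 334 CPM on TGF-b2. TGF-b2 A lay just below control A, the other TGF-b2 libraries above every control, and all 4 above the highest of the 12 others, at 183 CPM. The log2 fold change was 1.54 against the other stimuli (SE 0.30, edgeR adjusted p 0.0317) and 1.29 against the control (SE 0.38, adjusted p 0.963). *Tshz1* stood at 146, 73.1, 70.6 and 77.2 CPM in controls and at 576, 134, 189 and 315 CPM on TGF-b2. Against the other stimuli the log2 fold change was 1.81 (SE 0.35, edgeR adjusted p 0.0317), with 2 of 4 TGF-b2 libraries above all 12 others. The highest of those, 305 CPM, came from the very shallow C1Q and C5 library A. *Dok5* stood at 12.5, 13.1, 4.15 and 10.5 CPM in controls and at 60.0, 36.0, 30.1 and 35.5 CPM on TGF-b2, above every control and above the highest of the others, at 27.3 CPM. The other stimuli differed among themselves, with means of 9.37 CPM on IL-1a and TNF-a, 0.329 CPM on C1Q and C5 and 21.2 CPM on IL-1b and IL-6, beside 40.4 CPM on TGF-b2. Pooled over these unlike groups, its log2 fold change was 3.31 against the other stimuli (SE 0.65, edgeR adjusted p 0.0317) and 1.98 against the control (SE 0.62).

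Each of these 3 calls was lost in several alternatives. Without TGF-b2 A, B, C or D in turn, *Foxp1* had an adjusted p by edgeR of 0.0719, 0.058, 0.257 and 0.268, with log2 fold changes of 1.70, 1.61, 1.40 and 1.42. *Dok5* had 0.376, 0.109, 0.101 and 0.231, with log2 fold changes of 3.04, 3.39, 3.42 and 3.34, so that the estimates stayed near those with all libraries. *Tshz1* lost its call without A (log2 fold change 1.27, adjusted p 0.746) and without D (1.78, adjusted p 0.231). Over all alternatives the adjusted p of *Foxp1* ran from 0.0261 to 1.00, that of *Tshz1* from 0.00694 to 1.00 and that of *Dok5* from 0.0213 to 1.00. *Hoxb5* was not called against the other stimuli (1.73, SE 0.40, edgeR adjusted p 0.175), where IL-1a and TNF-a library A, at 136 CPM, lay above TGF-b2 A. Against the same controls, edgeR called 0 genes for IL-1a and TNF-a (143 at an unadjusted p under 0.05 of 4479), 0 for C1Q and C5 (322 of 7348) and 0 for IL-1b and IL-6 (98 of 8327). DESeq2 and limma were not run on those 3 comparisons.

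**Figure D3:**
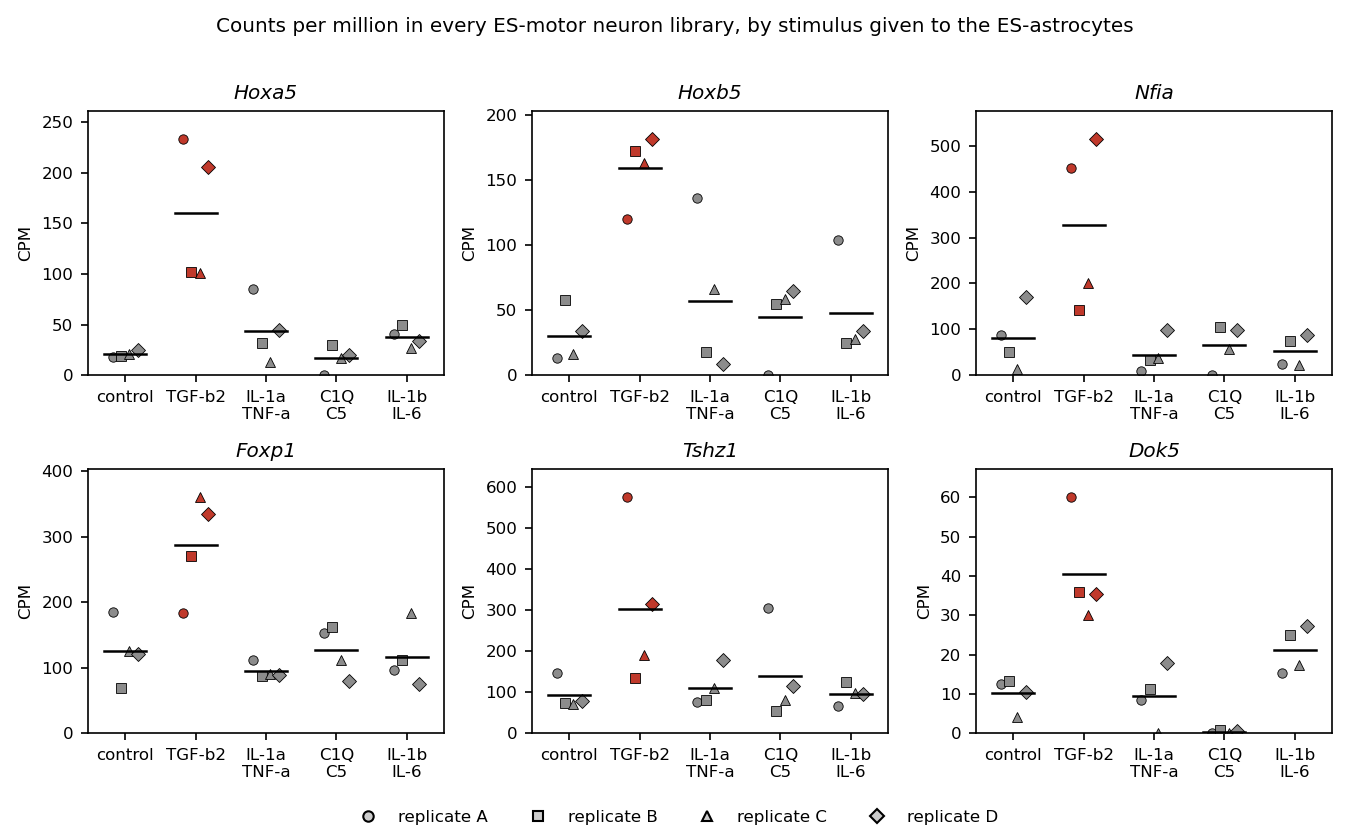
CPM of 6 genes in every ES-motor neuron library, by the stimulus given to the ES-astrocytes (TGF-b2 in red, the others in grey, symbols by replicate, line at the mean of 4). For *Hoxa5*, *Nfia*, *Foxp1* and *Dok5* the 4 TGF-b2 libraries lie above all 12 libraries on other stimuli, and for *Hoxb5* and *Tshz1* they overlap with them.

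The ES-astrocytes of the same cultures were compared to ask whether the difference on TGF-b2 itself differed between cell types. The interaction of cell type and TGF-b2 in edgeR was called for 0 of 11967 genes (0%), with 442 at an unadjusted p under 0.05, and DESeq2 called 17. The libraries entered as independent, without a term for a culture shared by both cell types, so the standard errors and p below leave such pairing out. With the replicate block edgeR likewise called 0. *Hoxa5* stood at 90.3, 65.9, 51.6 and 83.8 CPM in control ES-astrocytes A to D and at 232, 131, 95.4 and 216 CPM in TGF-b2 ES-astrocytes. These groups were apart as well, and the levels on TGF-b2 were near those of ES-motor neurons. The interaction for *Hoxa5* was 1.87 on the log2 scale (SE 0.59, unadjusted p 0.00454, edgeR adjusted p 1.00). *Hoxb5* had means of 154 ± 60.9 CPM in control and 465 ± 116 CPM in TGF-b2 ES-astrocytes (SD, n = 4 each), with an interaction of 0.87 (SE 0.57). Within ES-astrocytes edgeR called 0 of 10794 genes for TGF-b2 against control, with 136 at an unadjusted p under 0.05, and other tools were not run there.

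The 3 interactions of smallest p were *Arhgap36* (-5.59, SE 1.14), *Stx3* (-9.79, SE 2.08) and *Exo1* (11.96, SE 2.46), each with an adjusted p of 0.587 by edgeR. DESeq2 called all 3, with adjusted p of 0.0114, 6.61e-05 and 6.61e-05, and over all alternatives the adjusted p of each ran up to 1.00. *Arhgap36*, which activates hedgehog signalling, stood at 243 ± 43.4 CPM in control and 347 ± 118.5 CPM in TGF-b2 ES-motor neurons (SD, n = 4 each), and at 0.0691 and 9.15 CPM in the ES-astrocytes. *Stx3*, a syntaxin of membrane fusion, had means of 16.6 and 4.90 CPM in ES-motor neurons and of 0.0318 and 16.7 CPM in ES-astrocytes. *Exo1*, a DNA exonuclease, had 0 counts in control ES-motor neurons and 45 on TGF-b2, at 7.06, 1.11, 17.1 and 0 CPM in A to D, and means of 32.8 and 2.71 CPM in ES-astrocytes. Against a floor of 3 counts over the control ES-motor neurons it was at least 23.7-fold higher on TGF-b2, or 3.48-fold without control B, 9.31-fold without TGF-b2 C and 86.1-fold without TGF-b2 B. These estimates rest on groups with counts at or near 0, and the fitted folds depend on how such counts are treated.

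Promoters are printed for the genes called higher on TGF-b2 in either comparison that matched a RefSeq entry. Against the control only *Hoxa5* was called, and whether these genes changed together was not tested. Of the 5 genes, 2 had 1 entry that could be printed, *Hoxa5* and *Nfia*, each with the 250 bases before its start (RefSeq, build GRCm38.p6). The *Hoxa5* sequence is chr6:52204588-52204837 on the minus strand, next to the end of the gene at 52204587, with 63.6% G and C. The *Nfia* sequence is chr4:97581693-97581942 on the plus strand, with 44.8% G and C, and lies upstream of the gene start at 97772734 in GENCODE M21, so that it belongs to another transcript start. Both strands were searched for CAGAC, the SMAD binding element, for GGCGCC, a palindromic SMAD site, and for AGGTCA, the half-site of nuclear receptors such as those for retinoic acid. Capitals mark CAGAC, or GTCTG where it lies on the other strand.
Hoxa5: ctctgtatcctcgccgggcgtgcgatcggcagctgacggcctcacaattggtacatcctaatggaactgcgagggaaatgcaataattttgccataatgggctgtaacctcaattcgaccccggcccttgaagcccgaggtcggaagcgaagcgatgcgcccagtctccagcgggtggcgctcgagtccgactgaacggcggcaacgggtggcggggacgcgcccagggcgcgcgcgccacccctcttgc
Nfia: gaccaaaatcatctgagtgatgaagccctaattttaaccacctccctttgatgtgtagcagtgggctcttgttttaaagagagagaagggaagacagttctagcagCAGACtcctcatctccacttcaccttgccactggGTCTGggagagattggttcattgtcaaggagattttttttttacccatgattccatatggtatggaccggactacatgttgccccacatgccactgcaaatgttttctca
*Hoxa5* had 0 matches of each motif in this window, and *Nfia* had 2 of CAGAC and 0 of the others. Of 32851 promoters of this length, 42.2% held CAGAC, 9.59% GGCGCC and 14.0% AGGTCA. A match is a run of letters and not a shown binding site.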

How the data were processed

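The 4 TGF-b2 and 4 control ES-motor neuron samples were compared, with 12 ES-motor neuron samples on other stimuli and 8 ES-astrocyte samples beside them. The authors deposited raw read counts for each Ensembl gene after mapping with STAR. Its version, the build, the annotation and the counting tool are not stated in the sources at hand. Symbols and coordinates came from GENCODE M21 (GRCm38), which named 55227 of 55487 genes. Per comparison, edgeR 4.0.16 in R 4.3.3 filtered genes (filterByExpr, minimum count 10), scaled them by TMM and tested them (glmQLFit robust, glmQLFTest), with p adjusted over all genes tested. Alternatives used DESeq2 1.42.0 (alpha 0.1), limma 3.58.1 (voom with quality weights), RLE, other filters, a replicate block and left-out libraries, and the steps were tested on simulated data. The simulated spread between replicates was smaller than that of the real libraries, so the simulation does not show how many changes can be found here. Exact permutation tests and Clopper-Pearson intervals used scipy 1.17.1 under Python 3.11.15.

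The members and the 24 gene lists were chosen with earlier results of these data known. The genes named were a fixed set of identity, pathway and glial genes, the 10 of smallest p, the 3 of smallest p in each list, and up to 5 called, or else the 3 of smallest p, in each further comparison. Other genes served as examples. Some genes of the fixed set and the lists are not reported here.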

Additional observations from a re-analysis of the deposited data

Results flagged for a closer look

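In a group of 4 libraries, 1 library was taken as far from the others where its gap to the nearest, divided by the range of the group, exceeded the critical value of Dixon's test at the 5% level. Over 144 groups of named genes and 30 groups of library measures, chance alone gives about 1 in 20 such cases, and 17 were seen.

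Library B was far above the others in total counts, with a ratio of 0.890 in control and 0.885 in TGF-b2 ES-motor neurons. TGF-b2 B also stood apart in the share of counts in motor neuron identity genes (0.882) and in pan-neuronal genes (0.843), and in *Mnx1* (0.917), *Btg2* (0.878) and *Kitl* (1.00, from 1 count). TGF-b2 D stood apart in the share of ribosomal protein genes (0.874), in *Spock1* (0.833) and in *Nrp1* (0.8292), TGF-b2 A in *Celf4* (0.882), and TGF-b2 C in *Vim* (0.8294). Among controls, C stood apart in *Tgfbr1* (0.875), *Snx18* (0.840) and *Acvr1* (0.904), D in *Nfkbia* (0.930) and A in *Tshz1* (0.912). The cause was not tested.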

How the results depend on the processing

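Depth limits these results: 2 of the 8 libraries are shallow, and the fit without them uses 3 against 3. Of 72 tested genes named against the control only *Hoxa5* was called, so the others could not lose a call and their tally says little on stability. Of 1280 values under alternatives 7 fell short of the threshold, all of *Hoxa5*, 22 of uncalled genes passed it and 31 reversed. For the 5 genes called against the other stimuli, 27 of 50 values kept both and 23 fell short. The terms and splits by index primer, the comparison within plate index 2 and the summed ratios with single libraries left out were chosen after seeing the data.

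Against the control, where 1 gene was called, DESeq2 called 17, no filter on low counts 5, an adjusted p of at most 0.1 4, the stricter filter 3, the index primer as a term 3, and all 20 ES-motor neuron libraries in 1 fit 2. The count was 0 without the shallow libraries, with limma-voom, and within primer S338 or S340 alone, and 0 to 2 with single libraries left out. Against the other stimuli, where 5 were called, no filter on low counts gave 11, plate index 2 alone 3, no shallow libraries 0 and single libraries left out 0 to 4. DESeq2 called 17 interactions.

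The replicate block, a term for the letters A to D, called 4 genes against the control (*Hoxa5*, *Snx18*, *Hoxb5* and *Nfia*) and 3 against the other stimuli. Same-letter libraries of the 2 groups had residual correlations of 0.0537 to 0.192 across genes, which are not independent replicates, and 7 of 8 libraries correlated best with their own letter. The correlation for C was not above 0.1, so the letters were not taken as pairs.

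Reversed log2 fold changes were, for *Tgfbr1*, 0.00825 with DESeq2, 0.00187 with RLE, 0.0239 with the replicate block, 0.14 without shallow libraries, 0.12 with limma-voom and 0.00304 with the index primer term. For *Lhx1* they were 0.35 with the replicate block, 0.0253 without shallow libraries, 0.18 with limma-voom and 0.0430 with the index primer term. For *Smad2* they were 0.52 without shallow libraries and 0.0312 with limma-voom, for *Ier2* -0.11 with limma-voom and for *Cnp* -0.0300 with the replicate block. With single libraries left out, log2 fold changes ran from -0.82 to 0.0448 for *Chat*, -0.0929 to 1.02 for *Slc18a3*, -0.14 to 0.27 for *Tgfbr1*, -1.19 to 0.20 for *Smad2*, -1.46 to 0.23 for *Acvr1*, -0.0512 to 1.31 for *Chrna4*, -0.11 to 0.90 for *Ier2*, -0.38 to 1.21 for *Cnp* and -0.48 to 0.32 for *Lhx1*.

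Of the library measures, the difference of TGF-b2 from control ran, with single libraries left out, from -4805000 to 2675280 total counts, from -1729 to 734 genes detected, and, in percent of counts, from -0.0333 to 0.370 mitochondrial, from -0.266 to 0.0952 ribosomal protein, from -0.00618 to 0.00178 cholinergic and from -0.0015 to 9.88e-05 oligodendrocyte lineage. Without shallow libraries the cholinergic and oligodendrocyte differences were 0.00102 and 0.000772. The cause was not tested for any of these.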
